A study of Mus musculus with 10 samples.

Results

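The glypicans and syndecans are 10 mouse genes for cell surface proteoglycans, *Gpc1* to *Gpc6* and *Sdc1* to *Sdc4*. They were chosen by gene symbol, 10 of 48516 genes with an identifier, and no symbol among them was repeated. The families were selected with earlier values of these libraries in view, among them the low *Gpc4* level in metastasis 35 and 36, so levels are given as a description. Syndecans span the membrane and end in a short cytoplasmic tail, whereas glypicans are held on the outer face of the membrane by a lipid anchor. Both carry heparan sulphate, a sulphated sugar chain that binds growth factors such as FGFs, HGF, Wnts and Hedgehog proteins and presents them to their receptors. In human pancreatic cancer glypican-1 is known to be abundant.

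Polyadenylated RNA was measured in 10 libraries of the FVB mouse strain, 5 labelled as liver metastasis lines (Met25, Met35, Met36, Met38 and Met72) and 5 labelled as primary tumour of the cell line Ink4a with the same numbers. Ink4a.1 is a pancreatic cancer cell line that was placed in the pancreas of Ink4.1syn_Luc mice, and the metastasis lines were raised in culture from the resulting liver tumours. All were untreated cultures at 90% confluence per the labels, and the design text names Ink4a.1 as their shared parental line. The series design names metastases from 4 mice, although 5 numbers are labelled. It is not stated if the 5 primary libraries are separate tumours or repeat cultures, or which metastasis libraries share a mouse. The p-values therefore reflect variation among libraries that may be partly technical, and the libraries of a group may not be independent.

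The sequence that unites the syndecans is the end of their coding region, which encodes the tail bound by PDZ proteins such as syntenin (*Sdcbp*). The last 36 coding bases before the stop codon are shown from the GENCODE M21 transcripts (GRCm38), 5′ to 3′ on the coding strand, to show which members are most alike. Capitals mark the 12 positions at which all 4 genes have the same base.
Sdc1: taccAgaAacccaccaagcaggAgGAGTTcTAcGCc
Sdc2: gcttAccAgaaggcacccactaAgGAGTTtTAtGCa
Sdc3: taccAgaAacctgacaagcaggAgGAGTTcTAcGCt
Sdc4: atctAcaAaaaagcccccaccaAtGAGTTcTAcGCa
*Sdc1* (chr12:8791769-8791804, plus strand) and *Sdc3* (chr4:130822771-130822806, plus strand) shared 32 of the 36 bases. *Sdc2* (chr15:33032502-33032537, plus strand) and *Sdc4* (chr2:164426089-164426124, minus strand) shared 25. Between these pairs, 14 to 19 bases were the same.

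The 250 bases before the RefSeq start site (GRCm38.p6) are shown for the members whose level varied most between libraries and for which this window lies outside the GENCODE transcripts, *Gpc3* (chrX:52613975-52614224, minus strand) and *Sdc3* (chr4:130792287-130792536, plus strand). They are written on the strand of the gene, and capitals mark the GC box GGGCGG or its reverse complement CCGCCC.
Gpc3: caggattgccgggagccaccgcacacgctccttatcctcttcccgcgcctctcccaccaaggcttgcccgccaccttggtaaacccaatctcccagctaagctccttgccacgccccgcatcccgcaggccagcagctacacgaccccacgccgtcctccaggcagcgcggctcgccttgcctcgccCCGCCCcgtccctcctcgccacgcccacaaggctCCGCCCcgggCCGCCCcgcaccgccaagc
Sdc3: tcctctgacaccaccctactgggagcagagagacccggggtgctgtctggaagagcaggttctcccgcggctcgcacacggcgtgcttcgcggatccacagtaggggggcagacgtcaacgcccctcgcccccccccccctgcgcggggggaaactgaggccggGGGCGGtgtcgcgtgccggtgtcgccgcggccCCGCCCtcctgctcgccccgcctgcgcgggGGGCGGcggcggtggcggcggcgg
Each window held 3 GC boxes, and 32.7% of the 32817 windows of this length held at least 1. The GC content was 71.6% for *Gpc3* and 76.4% for *Sdc3*, against a median of 52.4% over all windows. *Gpc3* also held 1 CCAAT box (CCAAT or ATTGG, in 33.8% of windows) and *Sdc3* none. Neither held TATAA or TTATA, which 22.8% of windows hold. Of the 10 members, 7 had a window before a RefSeq start site, but those of *Gpc2*, *Gpc4*, *Sdc1* and *Sdc4* did not lie outside the GENCODE transcripts. All 7 held a GC box, 3 a CCAAT box and 3 TATAA or TTATA.

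The libraries differed in the transcripts of other cells. The summed level of 12 leukocyte markers ran from 2.11 to 3.51 FPKM (fragments per kilobase of transcript, scaled to library depth) for numbers 35 and 36, 4 libraries, and from 826 to 4614 FPKM for the 6 others, numbered 25, 38 and 72, with 11 of the 12 higher in each of the 6. Of these markers *Adgre1* and *Cd3e* were listed at 0 in all 4. The epithelial list was between 267 and 608 FPKM in the 4 and between 87.7 and 765 FPKM in the 6. Of its 10 genes *Cldn4* and *Esrp1* were listed at 0 in all 4, and the E-cadherin gene *Cdh1* did not exceed 0.291 FPKM there. The summed list was nevertheless in the range of the other libraries. Of its genes only 3, *Cdh1* and *Epcam* among them, were higher in each of the 6, and 0 were lower in each. *Cldn4* and *Esrp1* were thus not both above 0 in all 6. The estimated depth was 15.8 M fragments in metastasis 25 and 24.1 to 30.5 M in the other 9. The acinar and islet list summed to 6490 FPKM in primary 25 and to at most 0.0506 FPKM in the 4. Such sums stand beside labels that name cultures. Whether the levels for numbers 25, 38 and 72 are those of tumour cells alone was not tested. Because these are bulk samples, fewer cells of a type and less RNA per cell cannot be told apart.

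*Sdc4*, a syndecan of focal adhesions, had the highest mean level at 143 FPKM over the 10 libraries. It was followed by *Sdc1*, the main epithelial syndecan, at 84.8 FPKM, *Gpc1* at 73.3 FPKM and *Sdc2*, a syndecan of mesenchymal cells, at 66.5 FPKM. *Sdc3*, best known from nerve and muscle, stood at 34.4 FPKM and *Gpc4* at 10.4 FPKM. *Gpc6* (2.83 FPKM), *Gpc3* (2.18 FPKM), *Gpc2* (0.677 FPKM) and *Gpc5* (0.0121 FPKM) were low. *Sdc4* was above *Sdc1*, and *Sdc2* above *Sdc3*, in 10 of 10 libraries. The order of *Sdc1*, *Gpc1* and *Sdc2* was not stable: *Sdc1* was above *Gpc1* in 5 libraries and *Gpc1* above *Sdc2* in 6, with mean differences on the log2(FPKM + 1) scale of 0.16 ± 0.63 and 0.08 ± 0.73 (SD, n = 10). *Gpc6* was above *Gpc3* in 7 libraries, a mean difference of 0.74 ± 1.39 on that scale.

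**Figure D1:**
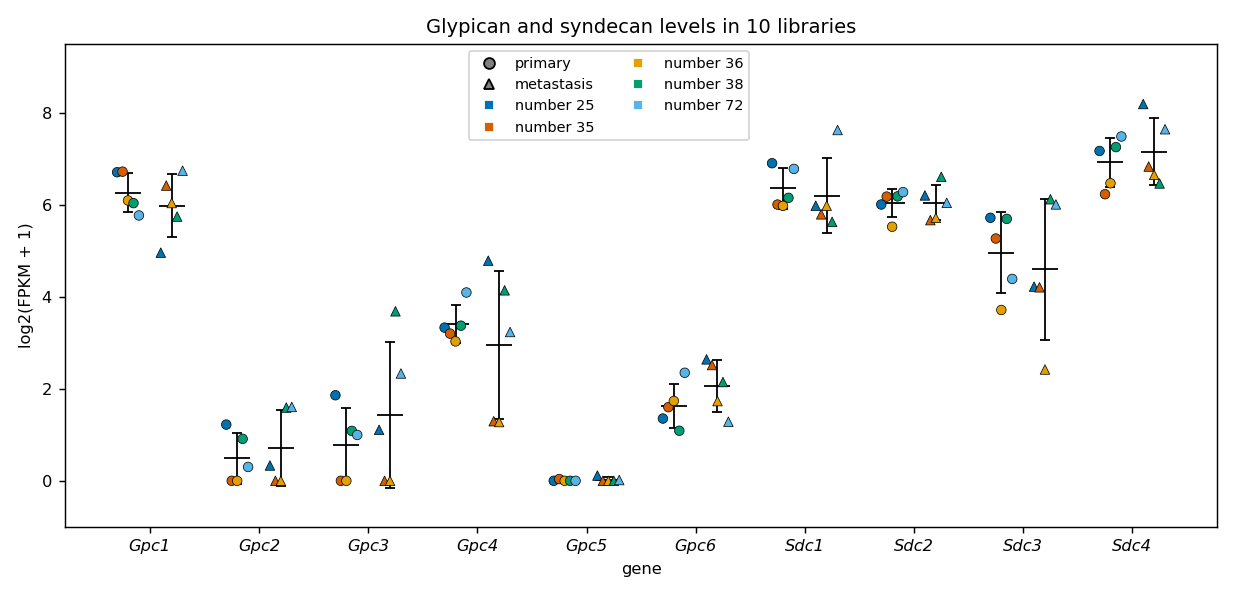
Level of each gene as log2(FPKM + 1) in the 5 primary (circles) and 5 metastasis (triangles) libraries, coloured by tumour number, with bars for the mean and SD of each group. The groups overlap for every gene, and *Gpc3*, *Gpc4* and *Sdc3* span the widest range.

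Syndecan transcripts outweighed glypican transcripts in every library. The summed FPKM of the 4 syndecans was 312 ± 80.4 in primary and 345 ± 135 in metastasis libraries, and that of the 6 glypicans was 92.5 ± 22.1 and 86.4 ± 23.1 (SD, n = 5 each). The ratio of these sums ran from 2.15 in primary 35 to 7.0 in metastasis 25. *Gpc1* was the highest glypican in all 10 libraries, with 47.5% to 94.5% of the glypican sum. *Sdc4* was the highest syndecan in 9 libraries, with 29.0% to 65.6% of the syndecan sum, and in metastasis 38 *Sdc2* (32.1%) was above it. Metastasis 25 held the highest *Sdc4* share, 65.6% of the syndecan sum, and the highest *Gpc4* share, 41.9% of the glypican sum. The summed hepatocyte markers in that library were 28900 FPKM, against at most 3254 FPKM in the other 9, and the summed erythroid markers were 29080 FPKM, against at most 871 FPKM. Their part in these shares was not tested.

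**Figure D2:**
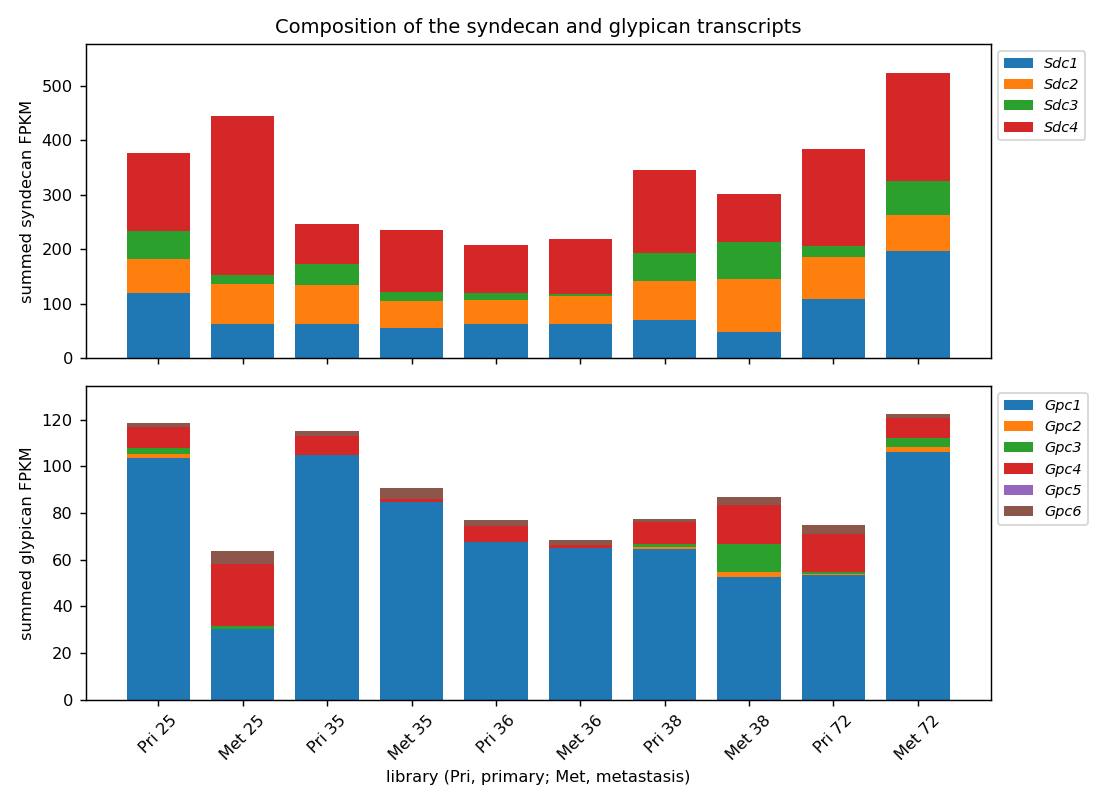
Stacked bars of the FPKM of each syndecan (top) and each glypican (bottom) in the 10 libraries (Pri, primary; Met, metastasis). *Sdc4* and *Gpc1* are the largest parts in most libraries, and metastasis 25 has the smallest *Gpc1* part, 47.5% of the glypican sum.

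No member was called different between metastasis and primary libraries, and the spread within each group was wide. Of the 10 genes, 8 had at least 1 FPKM in at least 5 libraries and were tested, and 0 were called (limma on log2(FPKM + 1), Benjamini-Hochberg adjusted p = 0.9998 for each), where 0.0% of the 13152 genes tested were called in either direction. For all 10 members the groups overlapped: 0 lay wholly above in metastasis, where 0.0684% of tested genes did, and 0 wholly below, where 0.0304% did. At an unadjusted p under 0.05 there were 0 members and 31 of all genes, fewer than this threshold gives by chance. This fit leaves out the tumour number. With the number as a block, 208 of all genes had an unadjusted limma p under 0.05, also fewer than by chance. The lack of calls therefore does not show that the groups had equal levels. The median log2 fold change of the 8 was -0.07, against 0.01 over all genes. *Gpc2* and *Gpc5* were below the minimum and were not tested.

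*Sdc4* (chromosome 2, 164424247 to 164443887) was 143, 74.2, 87.7, 152 and 179 FPKM in primary 25, 35, 36, 38 and 72. In the metastasis libraries of the same numbers it was 292, 113, 99.8, 87.4 and 199 FPKM. It was higher in metastasis in 4 of 5 numbers, and the groups overlapped. The log2 fold change was 0.23 (SE 0.38), and without metastasis 25, the library with the highest value, it was -0.02. *Sdc2*, which pairs with *Sdc4* in its tail sequence, varied least of the tested members, from 45.1 FPKM in primary 36 to 96.8 FPKM in metastasis 38. The fitted log2 change was 0.01 (SE 0.23), turning negative without primary 36, metastasis 25 or metastasis 38, to -0.13 at the lowest.

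*Sdc1* (chromosome 12, 8771323 to 8793715), which encodes the antigen CD138 also carried by plasma cells, was 119, 63.3, 62.1, 70.2 and 109 FPKM in primary 25, 35, 36, 38 and 72. In the metastasis libraries it was 62.3, 54.5, 62.2, 48.6 and 197 FPKM. The 4 libraries of numbers 35 and 36 lay close together, while metastasis 72 stood above all others. The log2 fold change was -0.16 (SE 0.38). It was -0.52 at the lowest with 1 library left out and -0.02 at the highest. Plasma cell markers did not have their maximum there: the 8 summed to 119 FPKM in metastasis 72 but to 2019 FPKM in primary 25, and their part in the *Sdc1* level was not tested.

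*Gpc1* (chromosome 1, 92820958 to 92860779) was 104, 105, 67.5, 64.7 and 53.6 FPKM in primary 25, 35, 36, 38 and 72. In the metastasis libraries it was 30.2, 84.7, 64.9, 52.7 and 106 FPKM. It was lower in metastasis in 4 of 5 numbers, by 3.44-fold in number 25, and higher by 1.98-fold in number 72, where *Sdc1* was 1.80-fold higher too. The fitted log2 change was -0.29 (SE 0.34). It came to -0.03 without metastasis 25 and -0.48 without metastasis 72. The locus overlaps other annotated genes, among them *Ankmy1*, and no source used here says if reads were counted by strand. The loci of *Gpc2*, *Gpc3*, *Gpc5*, *Gpc6* and *Sdc3* also overlap other annotated genes, so this limit holds for them too.

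*Gpc6*, a glypican of mesenchymal tissue, was 1.56, 2.03, 2.33, 1.13 and 4.10 FPKM in primary 25, 35, 36, 38 and 72. In the metastasis libraries it was 5.24, 4.72, 2.32, 3.43 and 1.44 FPKM. It was over 2-fold higher in metastasis 25, 35 and 38 than in the primary library of the same number, 1.00-fold apart in number 36 and 2.85-fold lower in metastasis 72. Its log2 fold change of 0.44 (SE 0.34) had the smallest unadjusted p of the 8 members, 0.223 in limma's test. Its value was positive without any 1 library, from 0.29 to 0.63.

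*Gpc4* (chromosome X, 52053021 to 52165252, minus strand) moved in opposite ways from number to number. In primary 25, 35, 36, 38 and 72 it was 9.07, 8.20, 7.18, 9.37 and 16.1 FPKM. In the metastasis libraries it was 26.6, 1.46, 1.43, 16.7 and 8.42 FPKM. The metastasis libraries thus held both the 2 lowest and the 2 highest values, and the SD was 10.8 FPKM among them and 3.52 FPKM among the primary libraries. Within number 35 the metastasis value was 5.63-fold lower and within number 36 5.03-fold lower. In number 72 it was 1.91-fold lower, whereas in numbers 25 and 38 it was 2.94-fold and 1.78-fold higher. The low values rest on about 93.0 and 102 fragments in metastasis 35 and 36. Over all 10 libraries the fitted log2 change was -0.46 (SE 0.67). It was -0.05 without metastasis 35, -0.04 without metastasis 36 and -0.92 without metastasis 25.

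*Sdc3* (chromosome 4, 130792537 to 130826319, plus strand) was 51.7, 37.6, 12.1, 50.9 and 19.97 FPKM in primary 25, 35, 36, 38 and 72. In the metastasis libraries it was 17.7, 17.5, 4.35, 68.7 and 63.5 FPKM. It was lower in metastasis within numbers 25, 35 and 36, by 2.92-fold, 2.15-fold and 2.79-fold, and higher within numbers 38 and 72, by 1.35-fold and 3.18-fold. The log2 fold change over all libraries was -0.36 (SE 0.70), and without metastasis 36, which held the lowest value, it was 0.18. *Sdc1*, nearest to *Sdc3* in its tail sequence, had differences of the same sign in numbers 25, 35 and 72 (-0.92, -0.21 and 0.85 on the log2(FPKM + 1) scale, against -1.50, -1.06 and 1.62 for *Sdc3*). In number 36 it was 1.00-fold apart, and in number 38 it was lower in metastasis (-0.52) where *Sdc3* was higher (0.43). The difference between the 2 genes was not tested.

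**Figure D3:**
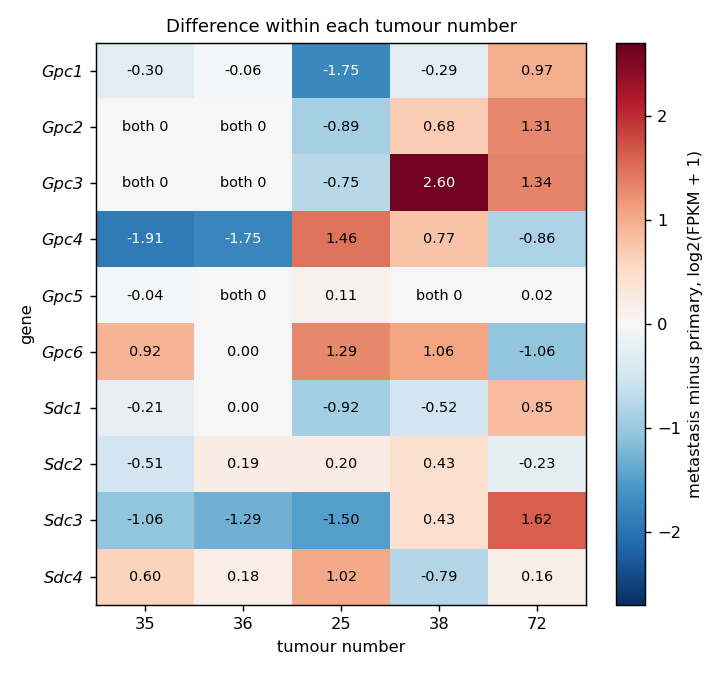
Metastasis minus primary on the log2(FPKM + 1) scale for each gene (rows) within each tumour number (columns), blue for lower and red for higher in metastasis, with "both 0" where both libraries were listed at 0. *Gpc4* and *Sdc3* are lower by at least 1 in both number 35 and number 36.

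Within numbers 35 and 36, *Gpc4* and *Sdc3* were at least 2-fold lower on the log2(FPKM + 1) scale in both metastasis libraries. Of the 13152 genes tested, 31 (0.236%) were, and by the smaller of the 2 differences *Gpc4* (1.75 lower) had rank 4 among them and *Sdc3* (1.06 lower) rank 28. No member was 2-fold higher in both, where 0.129% of all genes were. The *Gpc4* values were known when the members were chosen, so nothing is read from these counts. In a fit of these 4 libraries alone the log2 fold change was -1.83 (SE 0.12) for *Gpc4* and -1.18 (SE 0.89) for *Sdc3*, with limma adjusted p = 0.722 and 0.775. With the tumour number as a block, *Sdc3* had an SE of 0.12 and both had an adjusted p of 0.676, so neither was called. In the 6 libraries of numbers 25, 38 and 72 the fold changes were 0.46 (SE 0.45) and 0.18 (SE 0.60). The difference between these sets of numbers was not tested. The leukocyte markers *Ptprc* and *Lyz2* did not exceed 0.0178 and 1.05 FPKM in these 4, and the summed fibroblast and mesothelial list lay between 774 and 805 FPKM. Of the 10 marker lists, 4 had a higher sum in metastasis within both numbers, and 0 a lower one. The skeletal muscle sum was 1.45 FPKM in primary 35 and 6.22 in metastasis 35, and 8.45 and 32.1 FPKM in number 36, nearly all of the latter from *Acta1* (7.43 and 32.0 FPKM). The epithelial sum was 267 and 608 FPKM in number 35 and 497 and 547 FPKM in number 36. The endothelial sum was 5.80 and 8.54 FPKM, then 4.01 and 4.84 FPKM, and the nerve and Schwann cell sum 1.11 and 4.45 FPKM, then 0.462 and 0.882 FPKM. Their part in the *Gpc4* and *Sdc3* differences was not tested.

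*Gpc3*, the glypican whose loss causes overgrowth in mice and humans, and *Gpc2*, a glypican of developing nerve cells, were listed at 0 in all 4 libraries of numbers 35 and 36 and had a value in all 6 others. *Gpc3* (chromosome X, 52272426 to 52619047, minus strand) was 2.63, 1.12 and 0.996 FPKM in primary 25, 38 and 72 and 1.16, 11.9 and 4.04 FPKM in the metastasis libraries. *Gpc2* was 1.33, 0.882 and 0.232 FPKM in these primary libraries and 0.260, 2.02 and 2.05 FPKM in these metastasis libraries. In metastasis 38 and 72 both were higher than in the primary library of the same number, and in metastasis 25 both were lower. At the estimated depths, 3 fragments of the longest transcript correspond to at most 0.0562 FPKM for *Gpc3* and 0.0293 FPKM for *Gpc2* in the 4 libraries at 0, and these limits cover counting error only. Whether such zeros are estimates that failed was not tested. A single 0 with 1 FPKM or more in each of the remaining 9 libraries was seen for 21 of 48388 gene symbols. That pattern differs from 0 in all 4 libraries, and the cause of those single zeros was not tested either.

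A value in these 6 libraries with 0 in the 4 was seen for 666 of 27639 genes with any value (2.41%). Of the 8 tested members, *Gpc3* and *Gpc4* had all 6 values above all 4, as did 19.9% of tested genes, and 0 members had all 6 below, as did 24.0%. *Gpc3* just met the expression minimum, with 1 FPKM or more in 5 libraries, all among these 6, and 0.996 FPKM in primary 72. Its log2 fold change over all 10 was 0.64 (SE 0.72). For *Gpc4* the gap was narrow, from 8.20 FPKM in primary 35 to 8.42 FPKM in metastasis 72. The sums of 7 of the 10 marker lists, among them leukocyte, endothelial and erythroid, were also higher in each of the 6, the endothelial sum being at most 8.54 FPKM in the 4 and at least 27.1 FPKM in the 6, and their part in the *Gpc2*, *Gpc3* and *Gpc4* levels was not tested. In metastasis 38, where *Gpc3* was highest, the skeletal muscle list summed to 6800 FPKM, against at most 531 FPKM elsewhere, and its part was not tested either.

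*Gpc4* and *Gpc3* are neighbours on the X chromosome, 107173 bases apart in the loci of the table. Both were higher in metastasis 38 than in primary 38, but their course differed in the other numbers: *Gpc3* was at 0 on both sides in numbers 35 and 36, where *Gpc4* was over 5-fold lower in metastasis, and their differences had opposite signs in numbers 25 and 72. *Gpc5* and *Gpc6*, neighbours on chromosome 14, are 400117 bases apart. *Gpc5* was listed at 0 in 7 libraries, and its 3 values of 0.0118 to 0.0828 FPKM correspond to between 1.0 and 3.7 fragments.

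Genes with a profile most like that of a member were sought for the 3 tested members that spanned at least 2 on the log2(FPKM + 1) scale. Likeness was the root mean square difference of the centred values over the 10 libraries. Gene models named Gm plus digits, names ending in Rik and rows named only by an identifier were left out of this search. For *Gpc4*, itself with a root mean square of 1.08, the nearest were *Mamstr*, a coactivator of muscle transcription factors (0.43), *Cebpa*, a transcription factor of hepatocytes, fat and myeloid cells (0.44), and *Sp3os* (0.45). For *Sdc3*, with 1.13, they were *Nrp1*, a coreceptor of semaphorins and VEGF that can itself carry heparan sulphate (0.44), the anion transporter gene *Slco3a1* (0.50) and *Tbc1d9* (0.52). *Nrp1* was 5.95 FPKM in primary 36 and 0.831 FPKM in metastasis 36 and stood highest, at 36.4 FPKM, in metastasis 38, as *Sdc3* did. For *Gpc3*, with 1.17, they were the cholesterol exporter gene *Abcg1* (0.19), *Bex1* (0.22) and the matrix protein gene *Abi3bp* (0.23). The division between the 4 and the 6 libraries is shared by many genes, so these likenesses describe the libraries only.

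**Figure D4:**
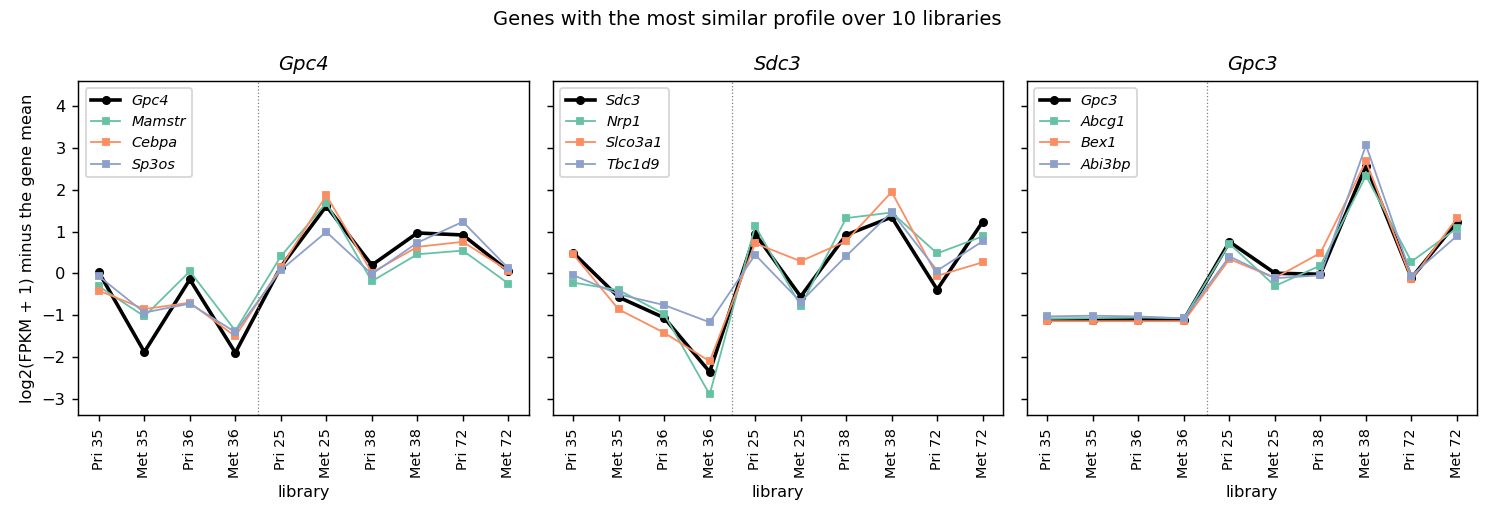
Centred log2(FPKM + 1) of *Gpc4*, *Sdc3* and *Gpc3* (black) over the 10 libraries, with the numbers 35 and 36 left of the dotted line. Coloured lines are the 3 genes with the smallest root mean square difference from each, with Gm, Rik and identifier names left out. *Gpc4* is lowest in the 2 metastasis libraries on the left, and *Gpc3* is flat there.

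Genes around heparan sulphate were followed from synthesis to receptors. Of 115 genes on 8 lists for the pathway, 90 were tested, 0 were called in either direction (limma adjusted p = 0.9998 for those named below), and 1 had an unadjusted p under 0.05. Their median log2 fold change was -0.03, against 0.01 over all genes. That 1 gene was *Pxylp1*, a phosphatase that acts on xylose of the linker sugar, with 11.8 ± 1.75 FPKM in primary and 8.27 ± 1.38 FPKM in metastasis libraries (SD, n = 5 each), a log2 fold change of -0.46 (SE 0.19), lower in 5 of 5 numbers, though by less than the rounding in number 72 (10.3 FPKM in both).

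Of the 11 genes for the linker and for chain polymerisation, 10 were tested, with a median log2 fold change of -0.07 (3 higher, 7 lower). Besides *Pxylp1*, the smallest p belonged to *B3galt6*, a galactosyltransferase of the linker (-0.39, SE 0.32), and *Fam20b*, the xylose kinase (-0.18, SE 0.37). *Ext2*, a subunit of the chain polymerase, had the highest mean level of this list, 33.7 FPKM. Of 15 modification genes 9 were tested (median 0.04). They included the 6-O-sulphotransferase gene *Hs6st1* (0.35, SE 0.26), the 3-O-sulphotransferase gene *Hs3st1* (-0.59, SE 0.88) and the epimerase gene *Glce* (-0.25, SE 0.41). For numbers 35 and 36 *Hs3st1* ran from 1.18 to 1.55 FPKM, and for the others from 1.81 to 26.5 FPKM. Of the 8 genes for the sugar and sulphate donors all were tested (median -0.02), with *Slc35d1*, a nucleotide sugar transporter (-0.34, SE 0.29), *Ugp2*, which makes UDP-glucose (0.34, SE 0.38), and *Papss1*, which makes the sulphate donor (-0.16, SE 0.20), at the smallest p.

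Genes that trim or release the proteoglycans were tested for 11 of 14 (median log2 fold change 0.06). *Sulf2*, an endosulphatase that removes 6-O-sulphate, was 72.8 ± 25.5 FPKM in primary and 49.8 ± 20.4 FPKM in metastasis libraries (SD, n = 5 each), with -0.56 (SE 0.38) and lower in 4 of 5 numbers. *Notum*, a lipase that can release glypicans and inactivates Wnts, had 0.48 (SE 0.64), and the sheddase gene *Adam10* -0.13 (SE 0.26). Of 14 cytoplasmic partners of syndecans, 13 were tested (median 0.03). Those with the smallest p were *Cttn*, which encodes cortactin (-0.22, SE 0.22), the dynamin gene *Dnm2* (0.19, SE 0.21), and *Prkca*, the kinase recruited by syndecan-4 (0.20, SE 0.27).

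Of 11 genes for other proteoglycans with heparan sulphate, 7 were tested (median -0.11), among them *Nrp1* (-0.70, SE 0.77), *Cd44* (0.15, SE 0.28) and the agrin gene *Agrn* (-0.19, SE 0.39). *Cd44* had the highest mean of this list, 123 FPKM. Of 23 ligands that bind heparan sulphate, 17 were tested (median -0.11), with *Fgf7* (0.36, SE 0.45), *Tgfb2* (0.29, SE 0.39) and pleiotrophin, *Ptn* (-0.74, SE 1.03), at the smallest p. *Fgf10*, an epithelial growth factor, was the only one of the 90 tested pathway genes that was at least 2-fold lower in metastasis within both numbers 35 and 36, as *Gpc4* was. In number 35 its primary value was 13.7 FPKM and its metastasis value 3.26 FPKM, in number 36 these were 1.96 and 0.00904 FPKM, and it was named after its values were seen. Of 20 receptors served by these coreceptors, 15 were tested (median -0.16). The laminin receptor gene *Itga6* had -0.42 (SE 0.23), the Wnt coreceptor gene *Lrp5* 0.48 (SE 0.43) and *Ptprs*, a phosphatase receptor for heparan sulphate, -0.25 (SE 0.30).

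**Figure D5:**
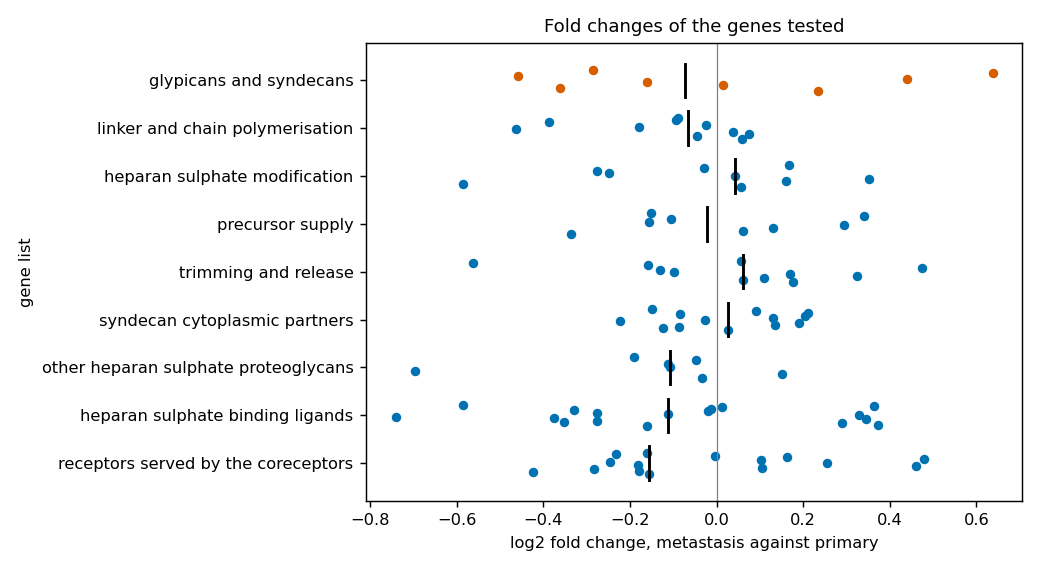
Log2 fold change between metastasis and primary libraries of each tested glypican and syndecan (orange) and of each tested gene on the 8 pathway lists (blue), with a black line at the median of each list. The medians lie between -0.16 and 0.06, and no gene was called.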

How the data were processed

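Polyadenylated RNA of 5 metastasis and 5 primary libraries was measured. The authors deposited FPKM values for each library. Salmon, edgeR and the build mm8 appear in the submitters' processing notes, without version or role. Which program gave the FPKM is not given in the sources used. Of the identifiers, 40599 were found in GENCODE M21 (GRCm38) with the same version, and 99.97% of these lay inside the locus given, so coordinates are for GRCm38. A locus can be wider than the gene.

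Genes reaching 1 FPKM in 5 or more libraries were tested as log2(FPKM + 1) with limma 3.58.1 in R 4.3.3 (intensity trend, Benjamini-Hochberg adjustment at 0.05). The fit was tried on simulated data drawn independently for each library. That trial held no likeness between same-numbered libraries, so it does not show how the fit behaves on the real values. A count test does not suit FPKM and was not used, and fold changes of low genes are understated. Depth was estimated from the lowest values of 742 single-exon genes of at least 3000 bases, taking each library as scaled to its own total. The FPKM sum was 939415 in metastasis 25 and at most 653161 elsewhere.

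The main fit left the tumour number out, so its SE and p-values are unpaired. Differences within a number and the block in an alternative used it. Same-numbered libraries deviated together from their group means (correlations of 0.235 to 0.893 over genes). Metastasis 25, 35 and 72 nevertheless correlated best with a primary library of another number.

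Members and lists were chosen with earlier results of these data known. The rule for named genes took all members, the 3 smallest p per pathway list, the 3 nearest profiles and the first 2 genes of each marker list. The gene with the highest mean of a list was added after values were seen. So were the markers *Adgre1*, *Cd3e*, *Cldn4* and *Esrp1*, which were named because they were listed at 0 in all 4 libraries of numbers 35 and 36. Alternatives covered the pseudocount, the expression minimum, scaling, the block, the trend and subsets of libraries. Figures were drawn with matplotlib 3.10.9.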

Additional observations from a re-analysis of the deposited data

Results flagged for a closer look

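Values of single libraries were compared with the other 4 of their group by Dixon's ratio, the gap to the nearest value over the range, on the log2(FPKM + 1) scale, with a critical value of 0.71. Of 20 groups, 3 stood out. Chance gives about 1 in 20 for continuous values, a rate that does not hold for groups with several values at 0, such as those of *Gpc5*. *Sdc1* in metastasis 72 had a ratio of 0.824, at 197 FPKM against 48.6 to 62.3 FPKM in the other 4 metastasis libraries. *Gpc5* in metastasis 25 had a ratio of 0.853, at 0.0828 FPKM against at most 0.0118 FPKM. *Gpc5* in primary 35 had a ratio of 1.0, at 0.0266 FPKM with the other 4 primary libraries listed at 0, which gives 1.0 whatever the value. These *Gpc5* values stand for about 3.7 and 1.9 fragments, so they are at the limit of detection.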

How the results depend on the processing

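In 20 alternatives, 10 of which left out 1 library, no member and no listed pathway gene was called, and the smallest adjusted p of a member was 0.676 (limma). With the tumour number as a replicate block over all libraries the fold changes were the same by construction (*Gpc4* -0.46, SE 0.53, adjusted p = 0.9994), and the block changed no call. Directions turned in 12 cases, none of them called. Within numbers 25, 38 and 72 alone, with or without the block, *Gpc4* was 0.46 and *Sdc3* 0.18. Within numbers 35 and 36 alone, with or without the block, *Sdc2* was -0.16, and with quantile normalization it was -0.010. The blocked fits of these subsets were chosen after seeing the data, and *Gpc3*, at 0 throughout numbers 35 and 36, has no value there. With 1 library left out the log2 fold change ranged from -0.13 to 0.11 for *Sdc2*, from -0.74 to 0.18 for *Sdc3*, from -0.024 (without metastasis 25) to 0.41 for *Sdc4*, from -0.92 to -0.04 for *Gpc4*, from -0.48 to -0.03 for *Gpc1* and from 0.07 to 0.99 for *Gpc3*. The cause was not tested. Median ratio scaling moved the mean family sums by less than their SD. Depth limits *Gpc5*, whose values rest on at most 3.7 fragments.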
